A study of Mus musculus with 9 samples.

Results

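Transforming growth factor beta (TGF-beta) signals through a short line of proteins, and 10 genes of that line were followed here in mouse hippocampal RNA. They are the ligands Tgfb1, Tgfb2 and Tgfb3, the latent ligand binding protein Ltbp3, the receptors Tgfbr1 and Tgfbr2, the signal transducers Smad2, Smad3 and Smad4, and the inhibitor Smad7. These members were chosen by gene symbol from the 57010 genes of the deposited table, each matched 1 row, and all 10 were among the 17967 genes expressed highly enough to be tested. A lower Tgfb1 level in cannabidiol-treated than in ligated mice was already known from these libraries when the genes were chosen, so the levels and differences of the members are a description.

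The libraries came from hippocampal tissue of C57BL/6J mice in 3 groups of 3. Sham mice had the L5 spinal nerve located but left untied and then received solvent. SNL mice had the nerve tied, a surgical model of neuropathic pain called spinal nerve ligation, and also received solvent. CBD mice had the same ligation and then cannabidiol, a non-intoxicating compound of the cannabis plant, at 5 mg/kg into the peritoneum over 15 days. No group analysed here received cannabidiol without ligation, and sex and age are not in the labels. The study's title puts the question as how cannabidiol acts on pain with depression in this model. SNL against sham addresses the ligation, CBD against SNL the drug in ligated mice, and CBD against sham both together. SNL enters the first pair of comparisons and sham the first and the last, so none of the 3 is independent of the others. Whether each library stands for its own animal is not stated in the labels, so the spread that p-values rest on may be technical only.

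TGF-beta ligands are secreted in a latent form, wrapped in their own propeptide and often tethered to the matrix by a latent TGF-beta binding protein, and integrins or proteases release them. The freed ligand binds the type II receptor TGFBR2, which activates the type I receptor TGFBR1, which in turn phosphorylates SMAD2 and SMAD3. These join SMAD4, enter the nucleus and regulate target genes, among them Smad7, whose product feeds back on the receptors. In the brain the pathway is known for keeping microglia in their mature state, for its role in blood vessels, and for effects on neurons and astrocytes.

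Libraries held from 16972620 to 20470546 expected counts, and every member had at least 43 reads in each. Tgfb1 was the most thinly counted, with 43 to 126 reads a library, and its estimates were not whole numbers in any of the 9 libraries, so some of its reads were shared with other features. The other members had between 229 and 1696 reads a library. Markers of the hippocampal neurons, astrocytes, microglia, endothelium and oligodendrocytes expected in this tissue were all above 0 in all libraries. The libraries also differed in tissue from outside the hippocampus. Pmch, a hypothalamic neuropeptide precursor, reached 200.4 CPM in SNL 1, 145.7 CPM in CBD 1 and 43.9 CPM in SNL 2, whereas no other library exceeded 0.797 CPM. CPM is a gene's count scaled to a common library size. Choroid plexus markers, all above 0, summed from 332.5 CPM in Sham 2 to 3220 CPM in SNL 2, with 332.5 to 1928 in sham, 498.8 to 3220 in SNL and 1653 to 2790 in CBD. Mitochondrially encoded transcripts took 3.2% to 4.56% of the counts in sham, 4.76% to 6.29% in SNL and 4.52% to 6.65% in CBD, so sham and SNL did not overlap, and the part of this in the differences below was not tested. The 3 libraries with Pmch are called below the libraries with hypothalamic transcripts, and leaving them out keeps SNL 3 as the only SNL library, with its spread assumed to be that of the others.

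The promoters of 3 members are shown because Tgfb1 and Smad3 had the largest fitted differences and Tgfb2 stood lower in SNL than in sham while Tgfb1 stood higher. Each sequence holds the 250 bases before the RefSeq start of the gene, on the gene's own strand and in build GRCm38.p6. An entry was found for 6 of the 10 members. Capitals mark matches, on either strand, to the GC box GGGCGG, the TATA box TATAAA and the CAGAC element that Smad proteins can bind. The cyclic AMP response element TGACGTCA and the AP-1 site TGACTCA were also searched and had no match in these 3 windows, and no match printed shares a base with another.
Tgfb1 promoter: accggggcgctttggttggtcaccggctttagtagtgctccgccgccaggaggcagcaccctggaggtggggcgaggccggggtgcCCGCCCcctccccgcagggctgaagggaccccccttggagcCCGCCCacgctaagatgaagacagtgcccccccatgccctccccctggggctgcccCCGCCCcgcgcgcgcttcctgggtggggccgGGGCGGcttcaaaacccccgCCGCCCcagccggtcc
Tgfb2 promoter: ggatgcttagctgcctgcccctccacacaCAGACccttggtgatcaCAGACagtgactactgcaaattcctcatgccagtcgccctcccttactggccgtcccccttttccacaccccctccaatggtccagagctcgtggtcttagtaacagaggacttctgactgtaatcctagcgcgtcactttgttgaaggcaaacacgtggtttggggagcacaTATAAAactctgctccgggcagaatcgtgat
Smad3 promoter: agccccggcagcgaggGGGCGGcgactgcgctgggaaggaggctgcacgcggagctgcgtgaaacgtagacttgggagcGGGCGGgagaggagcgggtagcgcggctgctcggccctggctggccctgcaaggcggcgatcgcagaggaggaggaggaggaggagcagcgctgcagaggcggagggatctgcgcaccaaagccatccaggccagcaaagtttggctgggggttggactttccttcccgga

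The Tgfb1 window lies at chr7:25686752-25687001 on the plus strand, has a GC content of 75.2%, and holds 5 GC boxes. The Tgfb2 window, chr1:186705990-186706239 on the minus strand, has a GC content of 53.6% with 1 TATA box close to the start and 2 CAGAC elements farther out. The Smad3 window, chr9:63757995-63758244 on the minus strand, has a GC content of 69.2% and 2 GC boxes. Among all 32851 windows of the same length, 32.7% held a GC box, 12.4% a TATA box, 42.2% a CAGAC element, 4.46% an AP-1 site and 1.55% a cyclic AMP response element, and the median GC content was 52.4%. The ligands thus differed in promoter makeup, with Tgfb1 at the 96.1 percentile of GC content and Tgfb2 at the 53.9 percentile. A match is a string of letters and was not tested as a binding site.

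Across the 10 members, edgeR's quasi-likelihood test with adjustment over all 17967 genes called 0 in SNL against sham, 0 in CBD against SNL and 0 in CBD against sham, and the share of all genes called was 0% in each. The smallest adjusted p of a member was 0.229 for Tgfb3 in SNL against sham, 0.306 for Tgfb1 in CBD against SNL and 0.228 for Smad2 in CBD against sham. At an unadjusted p under 0.05, 2 of 10 members passed in SNL against sham (13.8% of all genes), 2 in CBD against SNL (13.7%) and 2 in CBD against sham (16.3%). The 3 libraries of one group lay wholly above or below those of the other for 4 of 10 members in SNL against sham (17.7% of all genes), for 1 in CBD against SNL (19.3%) and for 3 in CBD against sham (21.7%). The DESeq2 Wald test, which called 2.02%, 0.868% and 2.11% of all genes in the 3 comparisons in that order, called 0 members in each. It gave Tgfb1 no adjusted p in CBD against SNL or CBD against sham. Limma voom called 0 members in SNL against sham (0.00557% of all genes), 1 in CBD against SNL (6.3%) and 0 in CBD against sham (5.85%). The median log2 fold change of the 10 members was 0.15, 0.01 and -0.03, beside 0.01, -0.001 and 0.001 over all genes tested. Of the 10 members 7 were higher in SNL than in sham, 5 were higher in CBD than in SNL and 4 were higher in CBD than in sham.

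**Figure D1:**
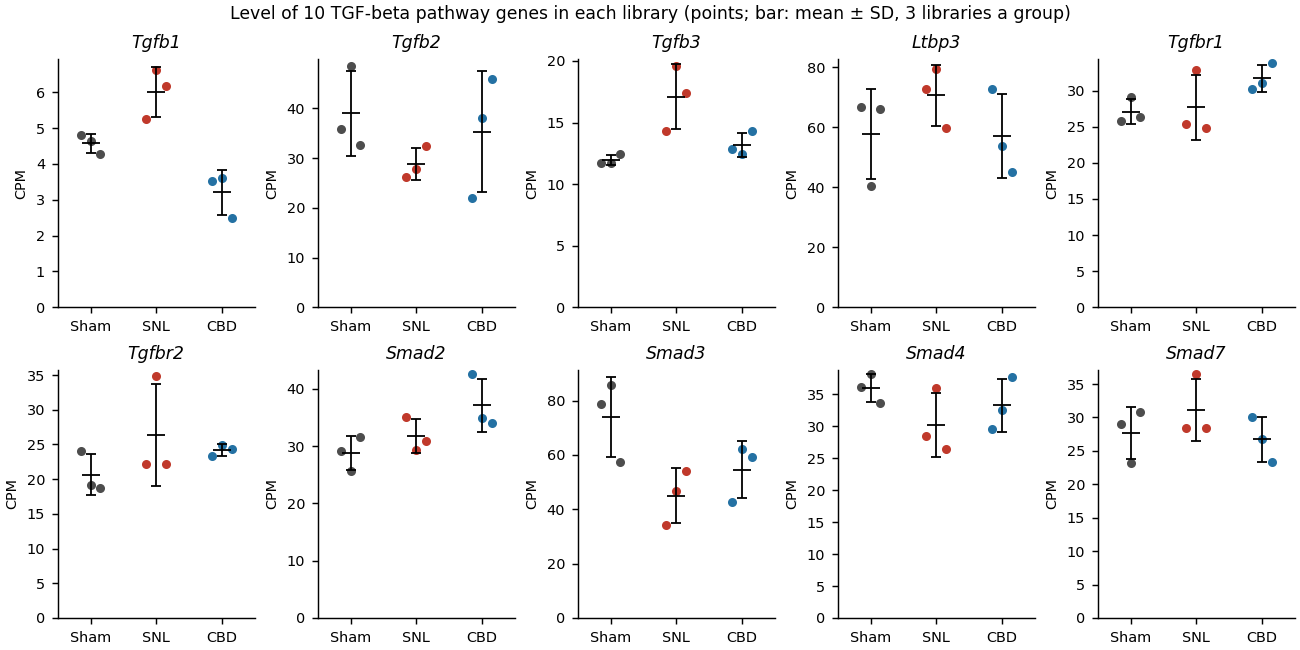
Level of each of the 10 members in CPM (vertical axis, from 0) in Sham, SNL and CBD libraries. Points are libraries, the long bar is the mean and the whiskers are 1 SD over 3 libraries. Tgfb1 stands highest in SNL and lowest in CBD with no overlap between the groups, and Smad3 stands highest in Sham. The share of all genes with all 3 groups separate was not counted.

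Tgfb1 encodes the ligand that microglia produce and depend on. Its level was 4.79, 4.65 and 4.28 CPM in the sham libraries, 5.25, 6.63 and 6.16 CPM in the SNL libraries, and 3.52, 3.61 and 2.49 CPM in the CBD libraries. The 3 groups did not overlap in any pair, with SNL on top, sham in the middle and CBD at the bottom. The share of all genes with all 3 groups separate was not counted. Single pairs were separate for 17.7% (SNL against sham), 19.3% (CBD against SNL) and 21.7% (CBD against sham) of all genes. The mean of Tgfb1 was 4.58 CPM ± 0.264 (SD, n = 3) in sham, 6.01 ± 0.698 in SNL and 3.21 ± 0.623 in CBD. In CBD against SNL the log2 fold change of Tgfb1 was -0.90 (SE 0.20). In SNL against sham it was 0.39 (SE 0.20) and in CBD against sham -0.51 (SE 0.20), and without CBD 3, the lowest library, the latter was -0.36. Limma voom gave Tgfb1 an adjusted p of 0.035 in CBD against SNL with a log2 fold change of -0.78, which is the 1 member it called. Without the libraries with hypothalamic transcripts the CBD against SNL difference of Tgfb1 was -1.01, and over all other settings tried it lay between -1.0 and -0.75. DESeq2 gave Tgfb1 no adjusted p in CBD against SNL or CBD against sham, since its filter on low means removed the gene.

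Microglial markers were lower in CBD as well. All 12 of 12 microglial markers had a lower mean in CBD than in SNL, the median log2 fold change being -0.38, and 5 of them had an unadjusted p under 0.05. Their summed level ran from 350.5 to 454.6 CPM in SNL, from 304.6 to 385.9 CPM in CBD and from 387.4 to 481.4 CPM in sham, and none of the 12 was at 0 in any library. Per 100 CPM of these markers, Tgfb1 stood at 1.11, 0.966 and 1.11 CPM in sham, at 1.5, 1.47 and 1.36 in SNL and at 0.912, 1.09 and 0.817 in CBD. On this scale the SNL libraries stayed above those of both other groups, while sham and CBD overlapped. Tgfb1 was scaled to microglial markers only, and oligodendrocyte markers, given below, also had their highest mean in SNL and lowest in CBD. In bulk tissue, fewer cells of a type and less RNA per cell cannot be told apart, here or for any gene below.

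Tgfb2 encodes the ligand made by neurons and astrocytes. Its level was 35.8, 48.6 and 32.6 CPM in sham, 26.2, 27.8 and 32.5 in SNL, and 22.0, 38.0 and 45.9 in CBD. The SNL libraries lay just below the sham libraries, the nearest pair being 32.5 CPM in SNL 3 and 32.6 in Sham 3, while the CBD libraries spanned nearly the whole range of the other groups. The mean was 39.0 CPM ± 8.46 (SD, n = 3) in sham, 28.8 ± 3.25 in SNL and 35.3 ± 12.2 in CBD. In SNL against sham the log2 fold change of Tgfb2 was -0.44 (SE 0.24), and it was -0.25 without Sham 2, the highest sham library. In CBD against SNL it was 0.29 (SE 0.24), with 0.06 without CBD 3, 0.53 without CBD 1 and 0.15 with offsets for GC content and transcript length. In CBD against sham it was -0.14 (SE 0.24) and turned to 0.10 without CBD 1. CBD 1, the lowest CBD library for Tgfb2, is the one with hypothalamic transcripts. With all libraries holding them left out, the log2 fold change was -0.26 in SNL against sham and 0.37 in CBD against SNL. In CBD against sham it was then 0.12. The part of these transcripts was not tested further.

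Tgfb3 encodes the third ligand, known from vascular and barrier tissue. Its level was 11.7, 11.7 and 12.4 CPM in sham, 14.3, 19.6 and 17.4 in SNL, and 12.9, 12.4 and 14.3 in CBD. All SNL libraries were above all sham libraries, whose values were close to each other, and the highest CBD library reached the lowest SNL library. The mean was 11.95 CPM ± 0.426 (SD, n = 3) in sham, 17.1 ± 2.65 in SNL and 13.2 ± 0.975 in CBD. The log2 fold change of Tgfb3 was 0.52 (SE 0.14) in SNL against sham, -0.37 (SE 0.14) in CBD against SNL and 0.14 (SE 0.14) in CBD against sham. Over all settings tried the first of these lay between 0.41 and 0.64. Tgfb3 shares its locus with Ttll5, a tubulin-modifying enzyme on the opposite strand with 692 to 999 reads a library, and whether the counting used strand is not given in the sources used here. The estimates of Tgfb3 and Ttll5 were whole numbers in all 9 libraries. Overlaps of the other members with neighbouring genes are not given here.

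Endothelial and thalamic markers were higher in SNL too. All 10 of 10 endothelial markers were higher in SNL than in sham, with a median log2 fold change of 0.55, and 8 of them had an unadjusted p under 0.05. Their sum was 256.0 to 288.9 CPM in sham, 344.9 to 469.9 in SNL and 330.6 to 356.3 in CBD, with no marker at 0. Per 100 CPM of endothelial markers, Tgfb3 stood at 4.04, 4.58 and 4.34 CPM in sham, at 3.65, 4.16 and 5.05 in SNL and at 3.90, 3.68 and 4.02 in CBD, and the 3 groups overlapped. This pairing and those given below were chosen after the values had been seen. Markers of thalamus and habenula summed to 371.4 to 520.3 CPM in sham, 614.6 to 1428 in SNL and 560.8 to 758.0 in CBD. Their sum was highest in SNL 2, where Tgfb3 was also highest, and in CBD too it was above every sham library. Per 100 CPM of them, Tgfb3 was 2.32, 3.16 and 2.39 CPM in sham and 2.03, 1.37 and 2.83 in SNL. In CBD it was 1.88, 2.22 and 1.89, below every sham library. Oligodendrocyte markers were higher in SNL than in sham for 8 of 8 (median 0.39) and lower in CBD than in SNL for 8 of 8 (median -0.49, 5 at an unadjusted p under 0.05). Their sum ran from 8629 to 11720 CPM in sham, from 10490 to 14870 in SNL and from 8222 to 9630 in CBD, with none at 0. Ltbp3 and Smad7, described below, had their highest means in SNL too. Per 100 CPM of oligodendrocyte markers, Ltbp3 was 0.756, 0.468 and 0.564 CPM in sham and 0.563, 0.534 and 0.569 in SNL. In CBD it was 0.753, 0.655 and 0.479, and the 3 groups overlapped. The part of these markers in the differences of Tgfb1, Tgfb3, Ltbp3 and Smad7 was not tested.

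Dividing each level by the length of the gene's longest transcript allows the ligands to be added up. The 3 ligands together came to 12.9 CPM per kb ± 1.62 (SD, n = 3) in sham, 13.0 ± 1.41 in SNL and 12.1 ± 2.38 in CBD, so the means of their sum were within 1 SD of each other, with single libraries from 9.47 in CBD 1 to 14.8 in Sham 2. Tgfb2 made up 56.8%, 64.3% and 54.4% of it in sham, 45.0%, 39.4% and 45.7% in SNL, and 45.4%, 59.4% and 63.3% in CBD. The share of Tgfb2 was below that of every sham library in all 3 SNL libraries, and CBD spanned both. Tgfb1 made up 15.1%, 12.2% and 14.2% in sham, 17.9%, 18.7% and 17.2% in SNL, and 14.4%, 11.2% and 6.8% in CBD. Every SNL library had a larger Tgfb1 share than any sham or CBD library. Tgfb3 took the rest, with 28.0%, 23.5% and 31.4% in sham, 37.1%, 41.9% and 37.1% in SNL, and 40.2%, 29.4% and 29.8% in CBD.

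**Figure D2:**
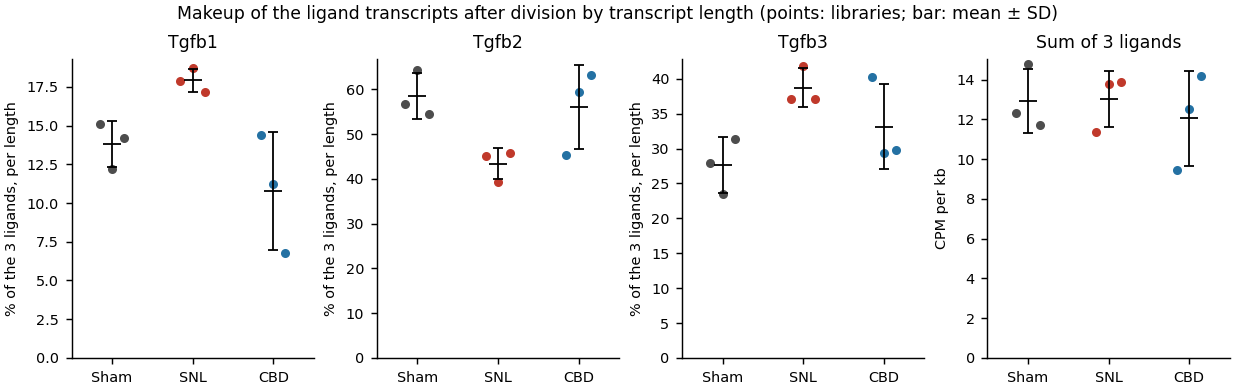
Share of each TGF-beta ligand in the sum of the 3 ligands after division by transcript length (percent, first 3 panels) and that sum (CPM per kb, last panel). Points are libraries and bars are mean ± SD over 3 libraries. SNL libraries have the largest Tgfb1 shares, 17.2% to 18.7%, while the mean of the sum is near 12 to 13 CPM per kb in each group and single libraries run from 9.47 to 14.8.

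Ltbp3 encodes a matrix protein that holds latent TGF-beta and aids its secretion. Its level was 66.6, 40.4 and 66.1 CPM in sham, 72.7, 79.5 and 59.7 in SNL, and 72.6, 53.8 and 45.1 in CBD. The groups overlapped in each comparison. Sham 2 and CBD 3, the lowest libraries of their groups for Ltbp3, were the highest of their groups for Tgfb2. Ltbp3 had a log2 fold change of 0.29 (SE 0.22) in SNL against sham, -0.30 (SE 0.22) in CBD against SNL and -0.01 (SE 0.22) in CBD against sham. The first of these was 0.09 without Sham 2 and 0.06 without the libraries with hypothalamic transcripts, and the second was -0.52 without CBD 1 and -0.16 without CBD 3. Its estimates were not whole numbers in 6 libraries.

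Tgfbr1 encodes the type I receptor kinase. Its level was 25.8, 29.1 and 26.4 CPM in sham, 25.3, 32.9 and 24.8 in SNL, and 30.2, 31.0 and 33.8 in CBD. Every CBD library was above every sham library, and SNL spanned both because of SNL 2. The log2 fold change of Tgfbr1 was 0.03 (SE 0.13) in SNL against sham, 0.19 (SE 0.13) in CBD against SNL and 0.23 (SE 0.13) in CBD against sham. With offsets that remove trends in GC content and transcript length, the latter differences were -0.04 and -0.02. The CBD against SNL difference of Tgfbr1 was 0.39 when the libraries with hypothalamic transcripts were left out. Over all genes tested, the fold change in CBD against sham fell with GC content, with a rank correlation across genes of -0.56, and in CBD against SNL it was -0.44.

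Tgfbr2 encodes the type II receptor that binds the ligand first. Its level was 24.0, 19.1 and 18.7 CPM in sham, 22.1, 34.9 and 22.2 in SNL, and 23.3, 25.0 and 24.3 in CBD. SNL 2 stood far above the other 8 libraries, which lay between 18.7 and 25.0 CPM, and the groups overlapped. Tgfbr2 had a log2 fold change of 0.36 (SE 0.18) in SNL against sham, -0.13 (SE 0.18) in CBD against SNL and 0.23 (SE 0.18) in CBD against sham. Without SNL 2 the first was 0.10 and the second turned to 0.13. SNL 2 also had the highest sums of endothelial, pericyte, thalamic, choroid plexus and oligodendrocyte markers, at 469.9, 348.5, 1428, 3220 and 14870 CPM. Per 100 CPM of endothelial markers Tgfbr2 was 7.43 CPM in SNL 2, within the range of 6.52 to 8.31 CPM in sham. SNL 1 at 5.65 and SNL 3 at 6.44 lay below that range, and CBD ran from 6.83 to 7.38. Per 100 CPM of thalamic markers Tgfbr2 was 3.6 to 5.15 CPM in sham and 3.21 to 4.45 in CBD. In SNL it was 3.14, 2.45 and 3.61, lowest in SNL 2. The part of these markers was not tested. Per length, Tgfbr1 exceeded Tgfbr2 in all 9 libraries, by a ratio of 1.32 in SNL 2 to 2.14 in Sham 2.

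Smad3, a transducer that binds DNA directly, showed the largest fitted difference of a member in SNL against sham. Its level was 78.6, 85.7 and 57.6 CPM in sham, 34.0, 46.8 and 54.2 in SNL, and 42.6, 62.0 and 59.1 in CBD. The SNL libraries lay below all sham libraries, and the CBD libraries overlapped both groups. The mean was 74.0 CPM ± 14.6 (SD, n = 3) in sham, 45.0 ± 10.2 in SNL and 54.5 ± 10.5 in CBD. The log2 fold change of Smad3 was -0.72 (SE 0.21) in SNL against sham, 0.28 (SE 0.21) in CBD against SNL and -0.44 (SE 0.21) in CBD against sham. Without the filter on low counts, where 0.776% of 32593 genes were called by edgeR, Smad3 was the 1 member called in SNL against sham, with an adjusted p of 0.0464 and a log2 fold change of -0.71. Without the libraries with hypothalamic transcripts its difference was -0.44 in SNL against sham, -0.28 in CBD against sham and 0.16 in CBD against SNL, and the last was 0.10 without SNL 1.

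Markers of hippocampal neurons were lower in SNL as well. In SNL against sham 10 of 10 of these markers were lower, the median log2 fold change being -0.66, and 4 of them had an unadjusted p under 0.05. Their sum was 919.6 to 1540 CPM in sham, 651.3 to 949.6 in SNL and 649.0 to 1121 in CBD, with no marker at 0. Per 100 CPM of them, Smad3 stood at 6.34, 5.57 and 6.26 CPM in sham, at 5.22, 5.74 and 5.71 in SNL and at 6.56, 6.28 and 5.27 in CBD. The 3 groups overlapped on this scale. For Tgfb2 the same ratio was 2.89, 3.15 and 3.54 CPM in sham, 4.02, 3.41 and 3.42 in SNL and 3.39, 3.85 and 4.10 in CBD, again overlapping between groups and, unlike the plain level, not lower in SNL than in sham. Per 100 CPM of astrocyte markers, Tgfb2 was 0.95, 1.12 and 0.887 CPM in sham, 0.857, 0.81 and 0.93 in SNL and 0.62, 0.914 and 1.04 in CBD, with a lower mean in SNL than in sham and overlap between the groups. The astrocyte sum was 3673 to 4338 CPM in sham, 3060 to 3489 in SNL and 3548 to 4437 in CBD. Slc1a2 was its largest part, with 2249 of 3767 CPM in Sham 1. Of the 8 astrocyte markers 5 were higher and 3 lower in SNL than in sham, so this ratio follows Slc1a2 more than the set.

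**Figure D3:**
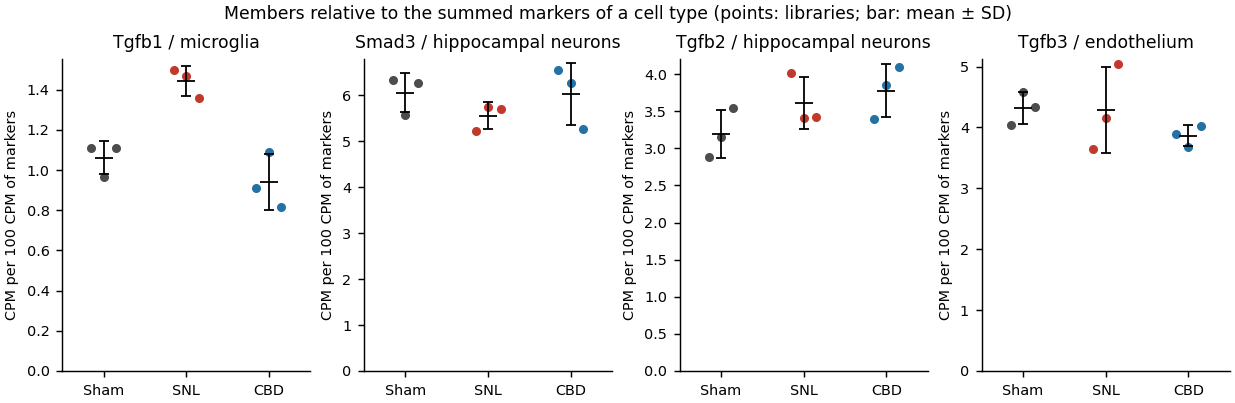
Level of 4 member and marker pairings per 100 CPM of the summed markers of a cell type (vertical axes, CPM per 100 CPM, from 0). Points are libraries and bars are mean ± SD over 3 libraries. Tgfb1 per microglial markers lies between 1.36 and 1.5 in SNL, above both other groups, while the groups overlap for Smad3, Tgfb2 and Tgfb3.

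Smad2, the partner transducer of Smad3, had 29.2, 25.7 and 31.6 CPM in sham, 35.1, 29.2 and 31.0 in SNL, and 42.5, 34.8 and 34.1 in CBD. All CBD libraries were above all sham libraries, and SNL lay between with overlap on both sides. The log2 fold change of Smad2 was 0.14 (SE 0.13) in SNL against sham, 0.23 (SE 0.13) in CBD against SNL and 0.37 (SE 0.13) in CBD against sham. With offsets for GC content and length the last was 0.21 and the CBD against SNL difference was 0.00, and without CBD 1 the latter was 0.11. Per length, Smad2 stood below Smad3 in every library, at a ratio to Smad3 of 0.23, 0.19 and 0.35 in sham, 0.65, 0.39 and 0.36 in SNL and 0.63, 0.35 and 0.36 in CBD. Every ligated library, with or without cannabidiol, had a higher ratio than any sham library. SNL 1 and CBD 1, with the highest ratios, both had hypothalamic transcripts, and the gap between Sham 3 and the lowest ligated library was small.

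Smad4, the shared partner of the transducers, ranged from 33.7 to 38.1 CPM in sham, from 26.4 to 35.9 in SNL and from 29.5 to 37.7 in CBD. The groups overlapped, and its log2 fold change was -0.25 (SE 0.14) in SNL against sham, 0.14 (SE 0.14) in CBD against SNL and -0.11 (SE 0.14) in CBD against sham. Without the libraries with hypothalamic transcripts the first was -0.44 and the second 0.41. Smad7, the feedback inhibitor, ranged from 23.3 to 30.8 CPM in sham, from 28.4 to 36.5 in SNL and from 23.3 to 30.1 in CBD. SNL 2 was the highest library for Smad7, the groups overlapped, and the log2 fold change was 0.17, -0.22 and -0.05 (SE 0.15 each) in the 3 comparisons in the order above. Without SNL 2 the Smad7 difference was 0.04 in SNL against sham and -0.09 in CBD against SNL.

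**Figure D4:**
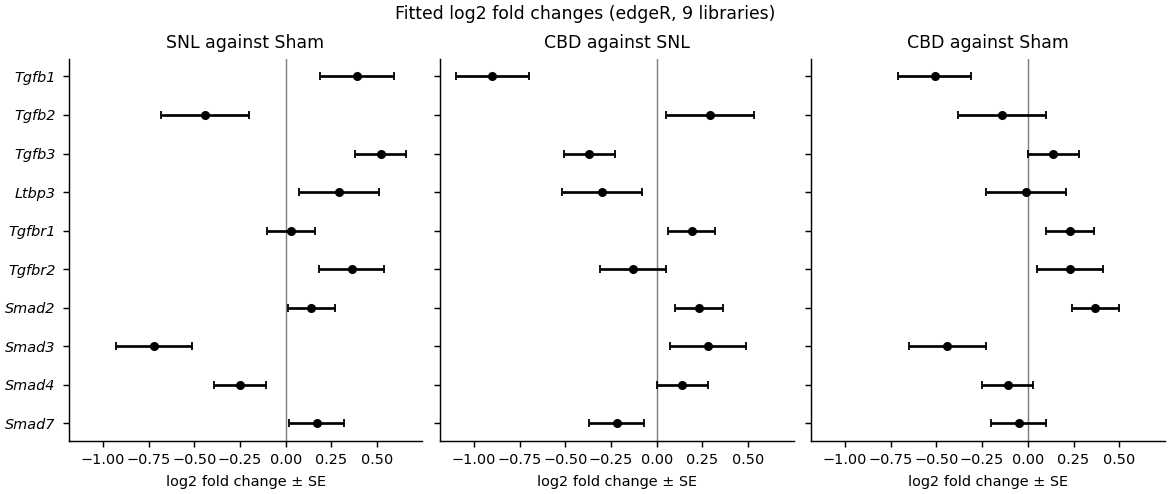
Fitted log2 fold change of each member in SNL against sham, CBD against SNL and CBD against sham (horizontal axis), with bars of 1 SE. Tgfb1 at -0.90 in CBD against SNL and Smad3 at -0.72 in SNL against sham lie farthest from 0, and no member passed the adjusted threshold in the edgeR fit drawn.

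Ordered by level per length, Smad3 was the most abundant member in sham at 14.5 CPM per kb ± 2.88 (SD, n = 3), and its libraries did not overlap those of the next, Smad4 at 10.6 ± 0.662. Ltbp3 at 10.1 and Tgfb2 at 7.62 CPM per kb followed, each overlapping its neighbours. Smad7 at 6.47, Tgfbr1 at 4.70, Smad2 at 3.56 and Tgfb3 at 3.53 CPM per kb came next, the last pair overlapping. Tgfbr2 at 2.55 and Tgfb1 at 1.78 CPM per kb closed the order, and Tgfb1 was lowest in each of the 3 groups without overlap with Tgfbr2. In SNL the order began with Ltbp3 at 12.3, Smad4 at 8.94 and Smad3 at 8.84 CPM per kb, which overlapped one another in that order. In CBD Smad3 at 10.7, Ltbp3 at 9.97 and Smad4 at 9.83 CPM per kb overlapped likewise. Tgfb3 stood above Tgfbr1 and Smad2 in SNL, at 5.05 CPM per kb with overlap, and below both in CBD, at 3.90.

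The genes most like each ligand over the 9 libraries were found by the Pearson r of log2 CPM among the 11730 tested genes averaging 5 CPM or more, given without a test. For Tgfb1 they were Nt5c3b (0.962), a nucleotidase, Pard6a (0.959), a cell polarity protein, and Uckl1 (0.956), a uridine kinase-like protein. For Tgfb2 they were the neuronal genes Ppp3ca (0.993), the calcineurin catalytic subunit, Grin2a (0.987), an NMDA receptor subunit, and Rbfox1 (0.987), a splicing regulator. For Tgfb3 they were Mif4gd (0.942), Pcp4 (0.935), a calmodulin-binding peptide of neurons, and Cox6a2 (0.934), a subunit of cytochrome c oxidase. The 9 points share groups and tissue makeup.

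Another 111 genes of the pathway were taken from 8 lists by role, and 104 of them were tested. By the edgeR adjusted threshold 0 passed in SNL against sham, CBD against SNL or CBD against sham. In that order DESeq2 called 2 higher and 2 lower, 0, and 2 lower, beside 2.02%, 0.868% and 2.11% of all genes. In SNL against sham these were Ier3 (DESeq2 adjusted p 0.00398) and Gdf11 (0.0296), higher, and Nrros (0.0131) and Mertk (0.0494), lower. In CBD against sham they were Bambi (0.0377) and Junb (0.00347). The shares given for DESeq2 are of all 17967 genes, including those it gave no adjusted p. Some of the 104 pathway genes had none and could not be called, among them Nrros, Lrrc32, Cd109 and Bambi in CBD against SNL. At an unadjusted p under 0.05, 7 were higher and 9 lower in SNL against sham, 11 and 7 in CBD against SNL, and 11 and 11 in CBD against sham, beside 13.8%, 13.7% and 16.3% of all genes in both directions. The values that follow are for genes named by rank of p within a list, and none of them passed the adjusted edgeR test.

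Among the 14 tested genes that hold or release the latent ligand, 1 was higher and 1 lower at that unadjusted level in SNL against sham. Nrros, which tethers latent Tgfb1 on microglia, was at 7.69 CPM ± 1.42 (SD, n = 3) in sham, 3.64 ± 1.17 in SNL and 4.44 ± 0.423 in CBD, a log2 fold change of -1.08 (SE 0.24) in SNL against sham that was -0.61 without the libraries with hypothalamic transcripts. It stood lower in SNL, where Tgfb1 stood higher. Lrrc32, a tether on other cells, had a log2 fold change of 0.80 (SE 0.28) there and 0.47 without SNL 2. In CBD against SNL the integrin subunits Itgav and Itgb8, which together release latent ligand, were at 0.34 (SE 0.13) and 0.48 (SE 0.19), at 0.11 and 0.19 with offsets for GC content and length, and at 0.57 and 0.89 without the libraries with hypothalamic transcripts. Among co-receptors, Tgfbr3, which presents Tgfb2 to its receptors, was at 20.5, 20.4 and 20.3 CPM in sham, 14.6, 17.8 and 13.4 in SNL and 18.4, 19.0 and 19.5 in CBD, with no overlap between SNL and either other group. Its log2 fold change was -0.42 (SE 0.12) in SNL against sham and 0.31 (SE 0.12) in CBD against SNL, the latter being 0.18 with those offsets and 0.52 without those libraries. Cd109, a co-receptor that dampens the signal, was at -0.88 (SE 0.41) in SNL against sham, with -0.56 without Sham 2 and -0.36 without the libraries with hypothalamic transcripts. Acvrl1, an endothelial type I receptor, was at -0.50 (SE 0.20) in CBD against SNL and at -0.27 without SNL 2.

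In the activin arm, Gdf11, a ligand that also uses Smad2 and Smad3, was at 0.66 (log2 fold change, SE 0.17) and the type I receptor Acvr1b at -0.31 (SE 0.10) in SNL against sham. Acvr2a, an activin type II receptor, was at 0.52 (SE 0.15) in CBD against SNL, beside Bmpr2 at 0.50 (SE 0.14) and Bmpr1b at 0.41 (SE 0.12), which are receptors of the BMP arm. In SNL against sham the BMP antagonist Chrd was at -0.89 (SE 0.28) and the receptor Acvr1 at -0.36 (SE 0.17). Without the libraries with hypothalamic transcripts, Gdf11 was at 0.37, Acvr1b at -0.16 and Chrd at -0.45 in that comparison. Of the negative regulators, Ski, a nuclear corepressor of Smads, was at -0.49 (SE 0.18) and Nedd4l, a ubiquitin ligase for them, at -0.55 (SE 0.21) in SNL against sham. In CBD against SNL the corepressor Skil was at 0.58 (SE 0.20) and Bambi, a decoy receptor, at -0.66 (SE 0.29). Of the partners, the GTPase Rhoa was at 0.31 (SE 0.10) and the coactivator Ep300 at -0.30 (SE 0.12) in SNL against sham, while Ep300 was at 0.32 (SE 0.12) and Trim33, a Smad-binding ubiquitin ligase, at 0.26 (SE 0.11) in CBD against SNL. Offsets for GC content and length shrank most of these CBD against SNL differences, Acvr2a to 0.27, Bmpr2 to 0.18, Bmpr1b to 0.21, Skil to 0.30, Ep300 to 0.20 and Trim33 to 0.01. They also brought Ep300 to -0.15 in SNL against sham. Without the libraries with hypothalamic transcripts, Acvr2a was at 0.25 and Bmpr1b at 0.34 in CBD against SNL, smaller than with all libraries. Larger there were Ep300 at 0.53, Bmpr2 at 0.68, Skil at 0.68 and Trim33 at 0.38. Ep300 was then at -0.48 in SNL against sham.

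The list of known TGF-beta target genes, 23 tested, leaves out targets counted under other roles, such as Smad7. Most of the 23 were lower in CBD than in SNL. In that comparison 20 were lower and 3 higher, the median log2 fold change being -0.29, beside 50.1% lower among all genes. The count was 15 with a median of -0.11 without SNL 2, 14 with -0.10 without the libraries with hypothalamic transcripts and 14 with -0.11 by limma voom, and the median was -0.16 with offsets for GC content and length, -0.17 without CBD 2 and -0.19 without CBD 3. In SNL against sham 16 were higher with a median of 0.15, but without SNL 2 the median was -0.04 with 12 lower. In CBD against sham 15 were lower with a median of -0.20, which was -0.03 with the offsets, -0.09 by limma voom, 0.00 without Sham 1, -0.10 without CBD 2 and -0.02 without CBD 3. Several of these targets are also genes of mural cells and fibroblasts. Acta2, smooth muscle actin, was at 10.6 CPM ± 0.335 (SD, n = 3) in sham, 16.3 ± 5.00 in SNL and 11.6 ± 1.18 in CBD, and Tagln, a smooth muscle protein, at 6.58 ± 1.15, 8.99 ± 1.47 and 6.08 ± 0.916. The Acta2 difference in SNL against sham was 0.62 (SE 0.20), and 0.34 without SNL 2. Pericyte and mural markers summed to 207.5 to 245.6 CPM in sham, 277.0 to 348.5 in SNL and 256.7 to 280.9 in CBD. None of them was at 0. Fibroblast markers summed to 135.8 to 175.6 CPM in sham, 114.1 to 165.2 in SNL and 135.2 to 187.7 in CBD. Of these 8 markers, 5 were higher and 3 lower in CBD than in SNL, the median being 0.25. Col1a1 at -0.48 and Col1a2 at -0.06 there belong to both the targets and the fibroblast markers. The part of either marker set was not tested. Ier3, a stress response gene, was at 4.49, 3.84 and 4.13 CPM in sham, 8.99, 9.57 and 10.6 in SNL and 9.26, 5.42 and 4.23 in CBD, a log2 fold change of 1.22 (SE 0.26) in SNL against sham. Id3, a helix-loop-helix inhibitor, was at -0.51 (SE 0.18) in CBD against SNL, with -0.27 under the offsets and -0.28 without SNL 2.

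Among 8 microglial genes that depend on TGF-beta, 5 were lower and 3 higher in CBD against SNL, with a median of -0.16. Mertk, a receptor for engulfing dying cells, was at 37.2 CPM ± 4.54 (SD, n = 3) in sham, 23.0 ± 3.87 in SNL and 33.6 ± 8.66 in CBD. Its SNL libraries lay below all others, while those of Tgfb1 lay above all others. Tmem119, a microglial marker, was at 26.7 CPM ± 2.88 in sham, 21.4 ± 2.84 in SNL and 18.1 ± 4.22 in CBD, and Olfml3, a secreted microglial protein, at 22.5 ± 1.0, 24.7 ± 5.58 and 17.1 ± 2.31. The 3 genes did not share 1 order of the groups.

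**Figure D5:**
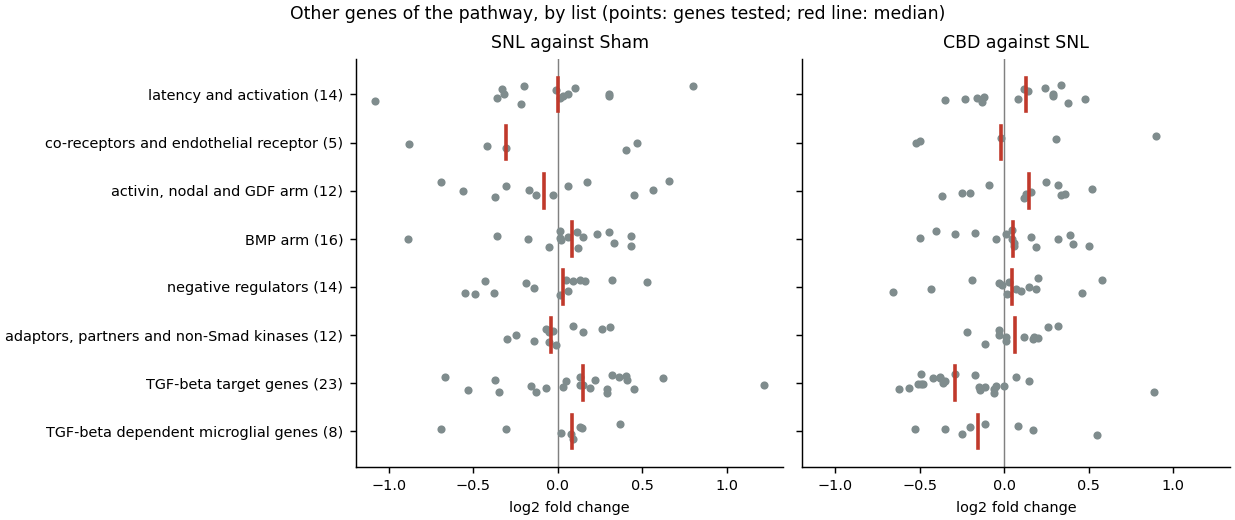
Fitted log2 fold change of each tested pathway gene outside the 10 members, by list (points), with the list median (red line), in SNL against sham (left) and CBD against SNL (right). The median of the TGF-beta target genes is 0.15 on the left and -0.29 on the right, and none of the genes passed the adjusted threshold in the edgeR fit drawn.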

How the data were processed

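Hippocampal RNA libraries, 3 each from sham, SNL and CBD mice, were grouped by their titles. TRIzol RNA, 1.3 ug a library, went into a SMARTER mRNA kit, per the labels' protocols. The authors deposited expected counts per gene, which RSEM estimates by dividing ambiguous reads between transcripts. RSEM and the build GRCm39 are named per the submitters' processing notes, and the sources used here do not give the aligner, annotation, versions or use of strand. Between 24.7% and 32.1% of the values above 0 in a library were not whole, and 24143 of 57010 genes had a total of 0. Values were rounded before testing.

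Genes were kept by filterByExpr and scaled by TMM, and edgeR 4.0.16 (R 4.3.3) fitted quasi-likelihood F tests with 1 factor over all 9 libraries, 6 residual degrees of freedom and Benjamini-Hochberg adjustment over 17967 genes at 0.05. The common biological coefficient of variation was 0.192. CPM uses TMM library sizes. The SE was taken as the log2 fold change over the root of F. Levels per length use the longest GENCODE vM21 transcript, whose build differs from that of the counts. Limma 3.58.1 (voom with sample weights) and DESeq2 1.42.0 were alternatives, beside other filters and size factors, fits on 6 libraries, a replicate block, offsets for GC content and length (98.2% of tested genes had values), left-out libraries and an adjusted p under 0.1. The test was checked on simulated data. CBD 2 and CBD 3 were the closest libraries, with a chi-square per gene of 6.46 against 16.16 or more for every other pair. This is above sampling noise, so they were not taken as the same library sequenced again and were counted as separate samples. The value cannot tell whether they came from separate animals.

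The members, gene lists, markers and alternatives were chosen with earlier results of these data known. Named pathway genes were, in each of the 8 lists, the 2 with the smallest p in SNL against sham and in CBD against SNL at a mean of at least 1 CPM. The genes most like each ligand were the 3 with the highest r. Target gene counts under each alternative and the marker pairings other than Tgfb1 with microglia were added after seeing the data. The chosen promoters are RefSeq sequences of GRCm38.p6, and the counts of GRCm39 were not placed on them.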

Additional observations from a re-analysis of the deposited data

How the results depend on the processing

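The number of genes called by edgeR was 0 in each comparison and rested on the settings. In SNL against sham it was 253 without the filter on low counts, 363 by DESeq2, 1 by limma voom, 1 without the 3 libraries with hypothalamic transcripts and 2 at an adjusted p under 0.1, and from 0 to 8 when 1 library was left out (8 without CBD 1, 7 without Sham 3, 1 without CBD 3). In CBD against SNL it was 1, 156, 1132 and 2 for the first 4 of these settings, and from 0 to 2 when 1 library was left out (2 without CBD 1). In CBD against sham it was 56, 380, 1051 and 20 for the same settings, 1 with only the 6 libraries compared, and from 0 to 17 when 1 library was left out (17 without CBD 1, 1 without SNL 2). The cause was not tested.

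Members were called under 2 settings only: 1 (Tgfb1) by limma voom in CBD against SNL, and 1 (Smad3) without the filter in SNL against sham. Of 540 refitted member differences (30 differences under 18 settings each), 529 stayed within 1 SD of the libraries and 11 moved further. For 8 of the 30 the sign changed under at least 1 setting, none of them called. With the replicate block 0 genes and 0 members were called in each comparison. The deviations of same-numbered libraries correlated from -0.27 to 0.19, and 1 of 9 libraries correlated best with its own number. No sign of pairing by number was seen. With 3 libraries a group that differ in tissue from outside the hippocampus, this check cannot exclude pairing. Tgfb1, at 43 to 126 reads a library, had the least depth, and 3 libraries a group could not reach an exact permutation p below 0.1.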
